A study of Mus musculus with 12 samples.

Results

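Metallothioneins are small, cysteine-rich proteins that hold zinc and copper, and Mt1 and Mt2 are the pair of them made in mouse liver. They are described here with Mtf1, the transcription factor that senses zinc, Slc30a1, a zinc exporter, and Slc39a14, a zinc importer. The 5 genes were chosen by symbol, with earlier results of these data known, and all 5 were found among the 36047 genes to which the quantified transcripts belong. RNA was sequenced from the livers of 12 adult male C57Bl/6J mice, single housed, after 7 days on a diet and a time without food before euthanasia. Per the study, the mice were also given deuterium-labeled water, by injection and then in the drinking water. The mice formed 4 groups of 3: a regular-fat control diet (RF.Ctrl), a regular-fat diet restricted in sulfur amino acids (RF.SAAR), a high-fat control diet (HF.Ctrl) and a high-fat restricted diet (HF.SAAR). Cysteine was absent from the control diets as well as from the restricted ones, and restriction meant less methionine, with glutamic acid to make up the nitrogen. The libraries held between 16203094 and 21230092 estimated counts. None of 8 hepatocyte marker genes was at 0 in any mouse, and Alb was the most abundant of them.

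Cells keep free zinc very low. When zinc rises, Mtf1 protein binds short DNA motifs called metal response elements and switches on the metallothionein genes and Slc30a1. Metallothionein then holds the metal through the sulfur of its many cysteines, while Slc30a1 moves zinc out of the cell. Slc39a14 brings zinc, and also iron and manganese, into hepatocytes. Glucocorticoids, inflammation and fasting also raise metallothionein transcripts in liver.

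In these livers the metallothioneins were lowest on the regular-fat control diet and highest by far in the mice on the high-fat restricted diet, and Mt1 and Mt2 followed each other closely from mouse to mouse. Mt1 was the only member to pass the test across all genes, and it did so in 1 of 6 comparisons, restriction averaged over both fat levels. The regulator Mtf1 and the exporter Slc30a1 were not called by edgeR in any comparison. The importer Slc39a14 was the most abundant transporter among the members and was lower in the restricted mice at regular fat, short of the threshold.

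Mt2 lies on chromosome 8 of the GRCm38 genome at 94172664 to 94173568 and Mt1 at 94179082 to 94180327, both on the plus strand, with 5513 bases between them. Their promoters are shown because these neighbors varied together, and that of Slc30a1 because it is the exporter among the genes Mtf1 is known to act on. The sequences are the 250 bases before the start of each gene in RefSeq (GRCm38.p6), plus strand, 5′ to 3′. They are Mt1 at chr8:94178839-94179088, Mt2 at chr8:94172368-94172617 and Slc30a1 at chr1:191906531-191906780. Capitals mark matches, on either strand, to the core of the metal response element, searched as TGCACNC and TGCGCNC.
Mt1: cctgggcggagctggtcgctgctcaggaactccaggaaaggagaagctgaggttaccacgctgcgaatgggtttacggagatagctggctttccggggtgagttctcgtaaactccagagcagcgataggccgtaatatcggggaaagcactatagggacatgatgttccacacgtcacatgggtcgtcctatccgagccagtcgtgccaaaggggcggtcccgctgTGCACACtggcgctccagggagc
Mt2: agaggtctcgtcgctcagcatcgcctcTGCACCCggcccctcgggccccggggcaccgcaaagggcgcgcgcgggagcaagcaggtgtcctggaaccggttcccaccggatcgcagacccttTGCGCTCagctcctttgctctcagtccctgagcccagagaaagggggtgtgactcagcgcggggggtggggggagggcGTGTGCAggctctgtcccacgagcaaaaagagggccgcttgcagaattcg
Slc30a1: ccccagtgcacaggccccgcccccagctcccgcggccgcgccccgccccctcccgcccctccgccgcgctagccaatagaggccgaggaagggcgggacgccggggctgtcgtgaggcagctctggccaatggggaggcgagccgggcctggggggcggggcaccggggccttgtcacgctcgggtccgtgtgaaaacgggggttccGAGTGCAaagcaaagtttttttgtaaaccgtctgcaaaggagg
The promoter table used, made from RefSeq, gave a sequence for 4 of the 5 members, Mt1, Mt2, Mtf1 and Slc30a1. The Mt1 window had 1 match, which lay 23 to 17 bases before the start. The main Mt1 transcript, Mt1-201, has its first base at 94179082, inside this window. The Mt2 window had 3 matches, 2 on the plus strand and 1 on the minus strand. The Slc30a1 window had 1 match, on the minus strand, and the Mtf1 window (chr4:124802299-124802548) had 0. Of all 32817 promoters of this length, 21.4% held at least 1 match and 1.27% held at least 3. The first 50 bases after the start held 2 more matches for Mt1, 1 more for Mt2 and 1 more for Slc30a1. The window counts leave these out, and no bases farther from the start were searched. A match is a description of the letters and not evidence of binding.

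The members span a wide range of levels. Per unit of transcript length, Mt1 had the highest mean over the 12 mice with 133 TPM (the unit of transcript abundance that is corrected for length), above 95% of the genes tested. Slc39a14 followed with a mean of 62.7 TPM and Mt2 with 46.2 TPM. This order did not hold in every group. Slc39a14 (73.3 TPM) was above Mt1 (48.4 TPM) in RF.Ctrl, and Mt2 (111.5 TPM) was above Slc39a14 (63.4 TPM) in HF.SAAR. Mtf1 averaged 6.13 TPM and Slc30a1 averaged 2.67 TPM, both below the means of the metallothioneins. The gap was narrower in RF.Ctrl, where Mtf1 had a mean of 7.38 TPM and Mt2 one of 17.9 TPM. In RF.Ctrl mouse 2, Mtf1 (7.18 TPM) was above Mt2 (6.69 TPM). The order between the metallothioneins was the same in every group: Mt1 was above Mt2, with a ratio of TPM of 2.98 ± 0.868 (SD, n = 3) in RF.Ctrl, 3.93 ± 0.661 in RF.SAAR, 2.76 ± 0.432 in HF.Ctrl and 2.69 ± 0.0329 in HF.SAAR. The other levels below are in CPM, counts per common library total after TMM scaling, which compare mice and not genes.

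Mt1 is the more abundant metallothionein. It stood at 27.2, 8.40 and 14.9 CPM in the RF.Ctrl mice 1 to 3, numbered as the samples are listed. The RF.SAAR mice had 33.6, 37.9 and 29.0 CPM. The HF.Ctrl mice had 20.2, 45.4 and 25.9 CPM. The HF.SAAR mice had 87.5, 110.0 and 109 CPM. Thus each restricted mouse was above each control mouse of the same fat level, and the HF.SAAR mice stood apart from every other mouse. For this separation and those below, the share of all genes that show the same is not given here. The RF.SAAR and HF.Ctrl mice overlapped, as did the control groups with each other. The group means were 16.8 ± 9.55 CPM (SD, n = 3) in RF.Ctrl, 30.5 ± 13.2 in HF.Ctrl, 33.5 ± 4.45 in RF.SAAR and 102 ± 12.6 in HF.SAAR. In that order the only step beyond the spread of the neighboring groups was the last one. Relative to the mean, the control groups were the more variable, with a coefficient of variation of 56.8% in RF.Ctrl and 43.3% in HF.Ctrl against 13.3% in RF.SAAR and 12.3% in HF.SAAR.

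**Figure D1:**
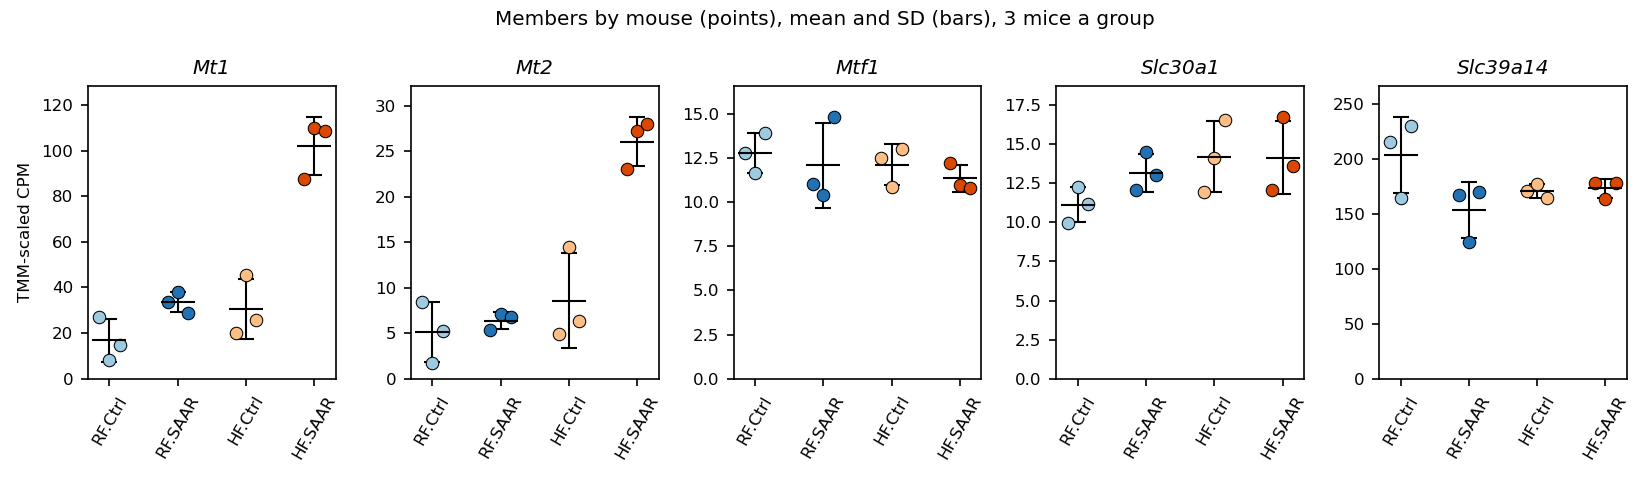
TMM-scaled CPM of each member (y axis, from 0) in each mouse (points) of the 4 groups (x axis), with the mean and SD over 3 mice as bars. Mt1 and Mt2 are highest in the HF.SAAR mice (87.5 to 110.0 CPM for Mt1), while Mtf1, Slc30a1 and Slc39a14 overlap between all groups of the same fat level.

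Mt2 is the less abundant neighbor of Mt1, with the same metal-binding role. It stood at 8.38, 1.77 and 5.23 CPM in the RF.Ctrl mice. The RF.SAAR mice had 5.33, 7.08 and 6.76 CPM. The HF.Ctrl mice had 4.93, 14.5 and 6.33 CPM. In the HF.SAAR mice it stood at 23.0, 27.2 and 28.0 CPM, above each of the other mice. The remaining groups overlapped, so that at regular fat the restricted mice lay inside the range of their controls. The group means were 5.13 ± 3.31 CPM (SD, n = 3) in RF.Ctrl, 6.39 ± 0.930 in RF.SAAR, 8.59 ± 5.18 in HF.Ctrl and 26.1 ± 2.66 in HF.SAAR. Summed, Mt1 and Mt2 came to 21.9 ± 12.8 CPM in RF.Ctrl, 39.9 ± 4.68 in RF.SAAR, 39.1 ± 18.4 in HF.Ctrl and 128 ± 15.2 in HF.SAAR. The sum is given because the paralogs are alike in sequence and reads that match both are shared between them in the estimated counts. How many reads were shared was not measured.

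The first comparisons ask what sulfur amino acid restriction did at each fat level and on average. The test was edgeR's quasi-likelihood F-test over 15061 genes, with p-values adjusted over all of them, and a gene was called at an adjusted p under 0.05. All 5 members were tested. At regular fat (RF.SAAR vs. RF.Ctrl) 0 of 5 members were called, where 217 genes or 1.44% of all genes were, 87 higher and 130 lower. There 2 of 5 members had an unadjusted p under 0.05, beside 13.4% of all genes, and DESeq2 called 0 of 5 and 613 genes in all. At high fat (HF.SAAR vs. HF.Ctrl) 0 of 5 members were called, beside 287 genes or 1.91% of all, 144 higher and 143 lower. Again 2 of 5 members had an unadjusted p under 0.05, beside 12.5% of all genes, and DESeq2 called 1 of 5, Mt1, and 616 genes in all. Averaged over both fat levels, 1 of 5 members was called, beside 1027 genes or 6.82% of all, 474 higher and 553 lower. With scaling by library size in place of TMM the split became 360 higher and 66 lower at regular fat, 702 and 83 at high fat, and 2288 and 278 on average. That scaling moved the middle log2 fold change over all genes up by 0.17 at regular fat, by 0.18 at high fat and by 0.17 on average.

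Mt1 rose with restriction in the averaged comparison, by 1.37 on the log2 scale (SE 0.28, 95% interval 0.73 to 2.0, adjusted p = 0.0203). Its mean level with restriction was 1.99 times that of the controls at regular fat and 3.35 times at high fat. Taken at each fat level alone, the log2 fold change was 1.0 at regular fat (SE 0.40, interval 0.09 to 1.90, adjusted p = 0.318), with 1.53 when RF.Ctrl mouse 1 was left out (adjusted p = 0.0885) and 0.67 when RF.Ctrl mouse 2 was. At high fat it was 1.74 (SE 0.40, interval 0.84 to 2.64, adjusted p = 0.0688). Each level alone thus missed the threshold. The averaged call was lost when RF.Ctrl mouse 3 was left out (adjusted p = 0.0593), when HF.Ctrl mouse 3 was left out (0.0591) and when its main transcript, Mt1-201, was tested among all transcripts (0.0807), while 10 of the 12 fits without a mouse kept it. Over the mice left out in turn the adjusted p ran from 0.00412 to 0.0593, and over the other alternatives from 0.000212 to 0.0807. The call at high fat was reached with scaling by library size, with DESeq2 and with the high-fat groups fitted alone, and when RF.Ctrl mouse 1, RF.Ctrl mouse 2 or HF.Ctrl mouse 2 was left out.

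Mt2 was above its controls by 0.96 on the log2 scale in the averaged comparison (SE 0.35, interval 0.18 to 1.74, adjusted p = 0.154), and was not called. At regular fat its log2 fold change was 0.33 (SE 0.51, interval -0.81 to 1.47, adjusted p = 0.876). That value turned to -0.09 without RF.Ctrl mouse 2 and was 0.89 without RF.Ctrl mouse 1. At high fat the log2 fold change of Mt2 was 1.59 (SE 0.48, interval 0.51 to 2.67, adjusted p = 0.167), and its mean there was 3.03 times that of the controls. Without HF.Ctrl mouse 2 this log2 fold change was 2.21, and without HF.Ctrl mouse 1 it was 1.32. Neither fat level alone passed the threshold, and the interval at regular fat spans both directions. It passed the threshold in the averaged comparison with scaling by library size (log2 fold change 1.15, adjusted p = 0.0368) and without HF.Ctrl mouse 2 (adjusted p = 0.0432), the control mouse with the highest Mt2. Over the mice left out in turn its adjusted p reached up to 0.271.

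An exact permutation test, two-sided and without a fitted spread, exchanged control and restricted mice within each fat level in all 400 ways. For Mt1 the difference in mean log2 CPM was 1.48, with an exact p = 0.005, the smallest that these relabelings can give, and p = 0.015 adjusted over 6 values, and 6 of 6 restricted mice were above the controls of their own fat level. The exact test for the sum of Mt1 and Mt2 gave a difference of 1.42, p = 0.005 and an adjusted p = 0.015. Mt2 alone had a difference of 1.15, with an exact p = 0.03 and an adjusted p = 0.06, short of the threshold. The other members had differences of -0.19 (Slc39a14), -0.09 (Mtf1) and 0.12 (Slc30a1), each with an adjusted exact p = 0.335. The same exact test on TPM, which also uses length, passed for Mt2 (1.52, adjusted p = 0.03) and Slc30a1 (0.42, adjusted p = 0.03) and turned Slc39a14 to 0.13. On CPM without TMM it passed for Mt2 (1.31, adjusted exact p = 0.04) and turned Mtf1 to 0.08. Within a single fat level, 3 mice against 3 cannot go below an exact p of 0.10.

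**Figure D2:**
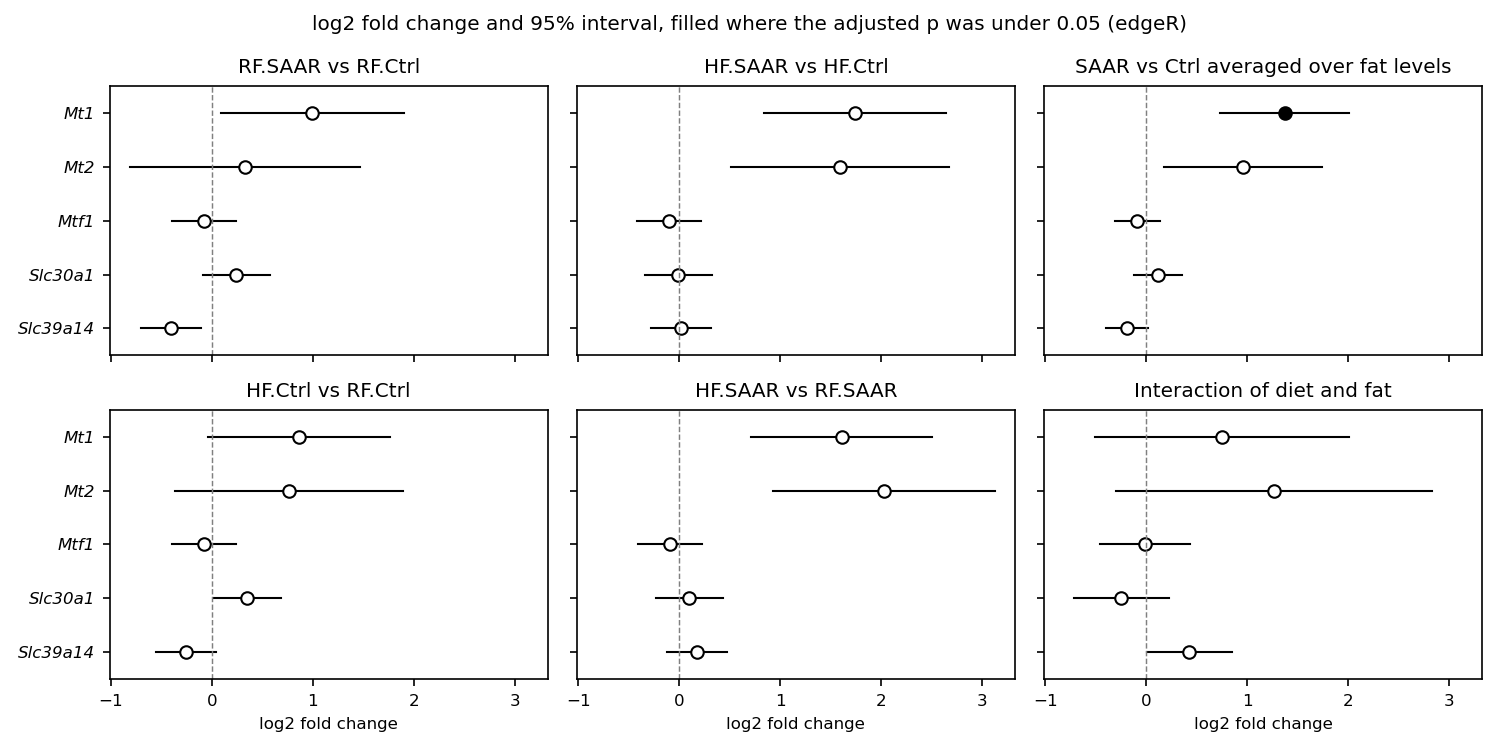
Log2 fold change of each member (points) with its 95% interval (lines) in the 6 comparisons, from edgeR, with 0 marked. Mt1 in the averaged comparison (1.37) is the only member value with an adjusted p under 0.05, and the intervals of Mt1 and Mt2 are the widest.

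The next comparisons ask what dietary fat did. HF.Ctrl vs. RF.Ctrl shares its mice with the comparisons above, as does HF.SAAR vs. RF.SAAR. Between the control groups 0 of 5 members and 0.0% of all genes were called by edgeR, with 552 genes at an unadjusted p under 0.05, 1 of them a member, and 31 genes called by DESeq2. Mt1 had a log2 fold change of 0.86 (interval -0.04 to 1.77) and Mt2 of 0.76 (interval -0.37 to 1.90), with 1 of 3 HF.Ctrl mice, mouse 2, above all RF.Ctrl mice for each gene. Both values depended on single mice: Mt1 was at 0.46 without HF.Ctrl mouse 2, at 0.54 without RF.Ctrl mouse 2 and at 1.40 without RF.Ctrl mouse 1, and Mt2 was at 0.15, 0.34 and 1.33 without the same mice. Between the restricted groups 0 of 5 members were called, beside 7 genes or 0.0465% of all. At an unadjusted p under 0.05 were 2 members, beside 837 genes or 5.56% of all, and DESeq2 called 2 members among 87 genes. Mt2 had its largest fitted difference here. Mt1 was higher at high fat by 1.61 on the log2 scale (interval 0.71 to 2.50, adjusted p = 0.502) and Mt2 by 2.03 (interval 0.93 to 3.13, adjusted p = 0.449). All 3 HF.SAAR mice were above all 3 RF.SAAR mice for both genes, and the share of all genes that separate so is not given. DESeq2 gave adjusted p-values of 0.0355 for Mt1 and 0.0351 for Mt2, and edgeR fitted on the restricted groups alone gave 0.00783 and 0.00290, so that the call differed with the tool and with the mice in the fit. The pancreatic acinar markers described below had a median log2 fold change of 2.42 between the control groups and 7.43 between the restricted groups. In both comparisons 15 of 15 were above 0 and 0 were called. Without the mice high in acinar RNA, Mt1 was higher at high fat by 1.38 and Mt2 by 1.84 in the restricted mice (adjusted p = 0.995 and 1.0), and neither was called.

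The interaction asks whether restriction acted differently at high and regular fat. By edgeR 0 of 5 members were called, beside 1 gene (Cyp39a1, an enzyme of bile acid synthesis, named after its values were seen) or 0.00664% of all, with 481 at an unadjusted p under 0.05, 1 of them a member (Slc39a14), and 17 genes called by DESeq2. The difference between the restriction effects was 0.75 on the log2 scale for Mt1 (interval -0.51 to 2.0, adjusted p = 0.999). For Mt2 it was 1.26 (interval -0.30 to 2.83, adjusted p = 0.999). Without RF.Ctrl mouse 1 these differences were 0.21 for Mt1 and 0.70 for Mt2, and without HF.Ctrl mouse 2 they were 1.15 and 1.88. They were 0.21 and 0.96 without the mice high in acinar RNA. The larger response of the metallothioneins at high fat is thus a difference of fitted values that the test of that difference did not separate from the spread between mice.

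Some libraries carried RNA of pancreatic acinar genes, which code for digestive enzymes. All 15 acinar markers were detected, with at most 1 of them at 0 in any mouse, and Amy2a5 was the most abundant with a mean of 617 CPM. Their summed level was 1214 CPM in RF.Ctrl mouse 1 and 73.1 and 63.2 CPM in the other RF.Ctrl mice. It was 35.7, 75.4 and 53.7 CPM in the RF.SAAR mice. The HF.Ctrl mice had 1490.1, 5375 and 59.1 CPM, and the HF.SAAR mice had 57.7, 3077 and 14898 CPM. The high libraries thus fell in 3 of the 4 groups and were most frequent at high fat. Among the high-fat mice with little acinar RNA, HF.SAAR mouse 1 had 87.5 CPM of Mt1 and HF.Ctrl mouse 3 had 25.9 CPM. Without the 5 mice above 1000 CPM, which leaves 1 mouse in each high-fat group and assumes that it varies like the others, Mt1 rose by 1.64 on average (SE 0.22, adjusted p = 0.0242). Mt2 was higher by 1.36 in that fit (adjusted p = 0.163).

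Mt1 and Mt2 varied together. Over the 12 mice the correlation of their log2 CPM was r = 0.963 (permutation p = 2e-05, p = 0.0002 adjusted over 10 pairs of members) and rho = 0.916 (permutation p = 0.00012, adjusted p = 0.0012). Without the mice farthest from the median of Mt1, RF.Ctrl mouse 2 and HF.SAAR mouse 2, r was 0.926 (permutation p = 0.00025, adjusted p = 0.0025). Since the groups differ in level, the deviations from the group means were compared too. They gave r = 0.953 (exact p = 0.00463, adjusted p = 0.0463). Without the mice with the largest deviations, RF.Ctrl mice 1 and 2, r was 0.895 (exact p = 0.0278, adjusted p = 0.139, from fewer relabelings, 216), so the call was lost without them. Among all genes tested, Mt1 and Mt2 had each other as the closest match over the 12 mice.

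**Figure D3:**
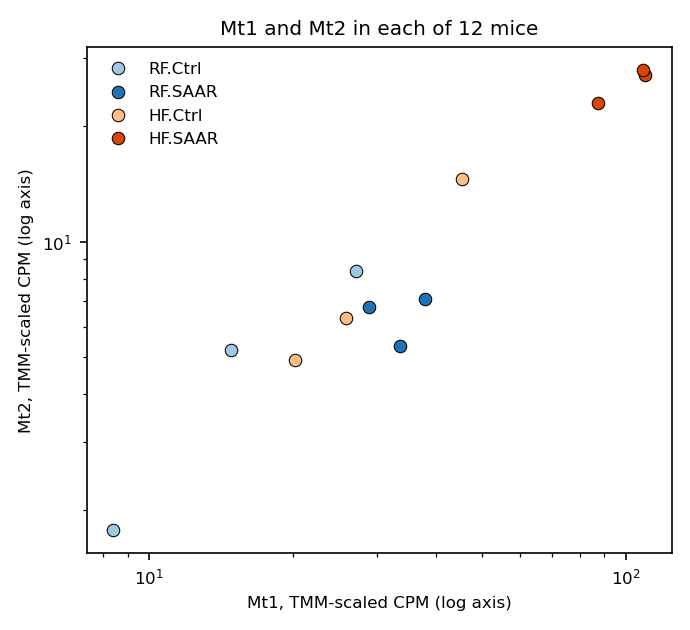
Mt2 (y axis) against Mt1 (x axis) in each of the 12 mice, both as TMM-scaled CPM on log axes, with colors for the groups. The points lie along a line (r = 0.963 for log2 CPM), with the HF.SAAR mice at its upper end and RF.Ctrl mouse 2 at its lower end.

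The spread of the metallothioneins among mice of the same group was large for liver genes. The SD of log2 CPM within groups was 0.53 for Mt1, above that of 83.6% of the genes tested, and 0.70 for Mt2, above 90.4%. It was 0.17 for Mtf1, 0.19 for Slc30a1 and 0.18 for Slc39a14, all below the median of 0.23 over the genes tested. A given fold change was therefore harder to call for the metallothioneins than for the other members.

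The genes with patterns most like Mt1 over the 12 mice, other than the members, were Faf1 (r = 0.924), Atf1 (r = 0.898), Gtf2h1 (r = 0.897), Pla2g12a (r = 0.887) and Ifrd2 (r = 0.876). For Mt2 they were Trem2 (r = 0.881), Vmn2r113, Cckar, Abcg5 and Faf1 (r = 0.857). By deviations from the group means the closest gene other than the members was Cd14 for both, with r = 0.949 for Mt1 and r = 0.974 for Mt2. Mt1 and Mt2 had r = 0.953 with each other by that measure. For Slc39a14 the closest by deviations were Pan3 (r = 0.972), Ahr (r = 0.964), Foxo1 (r = 0.961), Klf15 (r = 0.957) and Lpin2 (r = 0.949). These are the highest values out of 15061 genes and are given as a description, with no test.

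The Mt1 counts were divided among 3 transcripts. Summed over the 12 mice, Mt1-201, the main one, held 70.8% of the counts. Other shares of a gene's counts are such sums too, unless a group or mouse is named. Its mean was 14.1 CPM in RF.Ctrl, 26.6 in RF.SAAR, 22.5 in HF.Ctrl and 67.1 in HF.SAAR, so it followed the gene. Mt1-202, whose first base lies 152 bases after the RefSeq start, held 24.6%, with group means of 2.19, 6.08, 7.53 and 29.2 CPM in the same order. The mean share of Mt1-202 per mouse was 12.3% in RF.Ctrl, 18.8% in RF.SAAR, 25.4% in HF.Ctrl and 28.5% in HF.SAAR, and it ran from 2.78% to 34.4% among mice. The mean effective length of the gene, as deposited, was 332 bases in RF.Ctrl, 354 in RF.SAAR, 383 in HF.Ctrl and 375 in HF.SAAR. Mt2-201 held 93.8% of the Mt2 counts, and its first base lies 46 bases after the RefSeq start. With transcripts tested in place of genes, 2 of the 16 member transcripts tested were called in the averaged comparison, beside 537 of 36098 transcripts or 1.49% of all. They are named after their values were seen: Mt1-203, with 4.54% of the Mt1 counts (log2 fold change 1.98, adjusted p = 0.0431), and Mt2-202, with 6.25% of the Mt2 counts and at 0 in the RF.Ctrl mice (adjusted p = 0.0427).

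**Figure D4:**
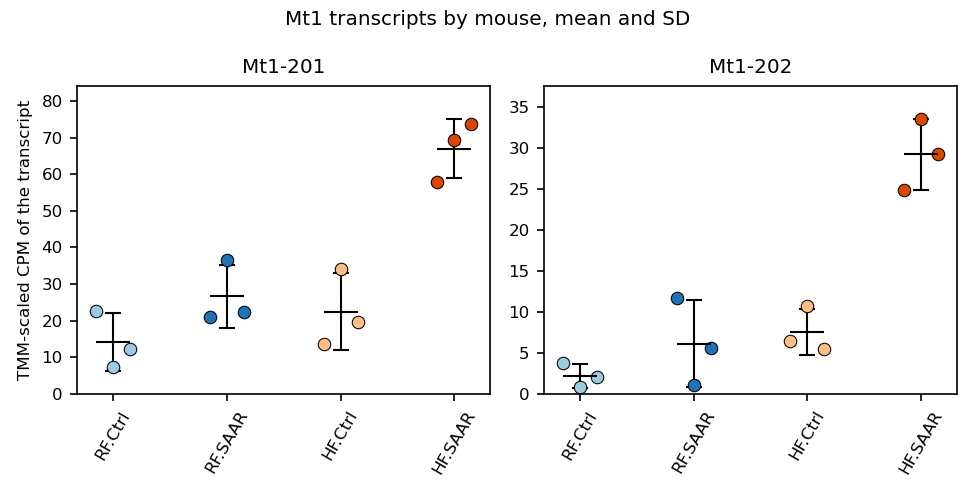
TMM-scaled CPM of the transcripts Mt1-201 and Mt1-202 (y axis, from 0) in each mouse (points) of the 4 groups (x axis), with the mean and SD over 3 mice as bars. Both are highest in the HF.SAAR mice, with means of 67.1 and 29.2 CPM.

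The remaining metallothioneins were near or at the limit of detection. Mt3, best known from brain, ran from 0.436 to 4.22 TPM and had a log2 fold change of -0.36 in the averaged comparison (adjusted p = 0.778). Mt4, best known from squamous epithelium, was at 0 in 11 mice and at 52 estimated counts in RF.Ctrl mouse 3, and was not tested. Of the 3 metallothioneins tested, Mt1 was the 1 called on average, beside 6.82% of all genes. Their median log2 fold change was 0.96, which is the value of Mt2, beside -0.00 over all genes.

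Mtf1 is the zinc sensor known to act on metallothionein promoters, and lies at 124802104 to 124849800 on the plus strand of chromosome 4. It ranged from 10.4 CPM to 14.8 CPM over the mice, with means of 12.8 ± 1.13 (SD, n = 3) in RF.Ctrl, 12.1 ± 2.38 in RF.SAAR, 12.1 ± 1.15 in HF.Ctrl and 11.3 ± 0.752 in HF.SAAR. No neighbors in that order differed beyond their spread. The averaged log2 fold change was -0.09 (SE 0.10, interval -0.31 to 0.14, adjusted p = 0.716), and it became 0.08 with scaling by library size and -0.38 (adjusted p = 0.233) with offsets for effective length. At regular fat it was -0.08, and -0.60 (adjusted p = 0.288) with those offsets. In TPM, which also uses length, its mean was 7.38 ± 0.304 in RF.Ctrl, 5.85 ± 1.03 in RF.SAAR, 5.35 ± 0.740 in HF.Ctrl and 5.96 ± 1.62 in HF.SAAR. Its transcripts were estimated unevenly: Mtf1-201 held 69.2% of the counts, and 10.5% in HF.SAAR mouse 1, where Mtf1-202 held 71.9%. Mtf1-204, a retained intron, held 17.1% of the counts. The transcript level of this regulator says nothing about its protein or its binding.

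Slc30a1, which exports zinc across the cell membrane, lies at 191906767 to 191913247 on the plus strand of chromosome 1. It ranged from 9.97 CPM to 16.7 CPM, with means of 11.1 ± 1.14 (SD, n = 3) in RF.Ctrl, 13.2 ± 1.23 in RF.SAAR, 14.2 ± 2.28 in HF.Ctrl and 14.1 ± 2.36 in HF.SAAR. RF.Ctrl was the lowest group and the others lay within their spread of each other. The averaged log2 fold change was 0.12 (SE 0.11, interval -0.12 to 0.35, adjusted p = 0.624), and without the mice high in acinar RNA it was -0.15. Between the control groups it was 0.35 (interval 0.02 to 0.69, adjusted p = 1.0), the value at an unadjusted p under 0.05 counted above. A single transcript, Slc30a1-201, held 99.9% of the counts. No correlation of the exporter with a metallothionein was called over the mice.

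Slc39a14, the importer of zinc, iron and manganese, lies at 70303469 to 70351425 on the minus strand of chromosome 14. The RF.Ctrl mice had 216, 165 and 231 CPM, and the RF.SAAR mice had 167, 124 and 170 CPM. The HF.Ctrl mice had 171.0, 177 and 165 CPM, and the HF.SAAR mice had 178, 164 and 178 CPM. The regular-fat groups overlapped through RF.Ctrl mouse 2, and the high-fat groups were alike. The means were 204 ± 34.4 CPM (SD, n = 3) in RF.Ctrl, 173 ± 8.34 in HF.SAAR, 171 ± 6.29 in HF.Ctrl and 154 ± 25.4 in RF.SAAR. No neighbors in that order differed beyond their spread, and the ends overlapped. The log2 fold change at regular fat was -0.41 (SE 0.14, interval -0.70 to -0.11, adjusted p = 0.189), and -0.23 (adjusted p = 0.434) with scaling by library size. At high fat it was 0.02 (interval -0.28 to 0.32). The difference between these effects was 0.43 (interval 0.01 to 0.85, adjusted p = 0.999), so neither the effect at regular fat nor the difference between fat levels was called. Slc39a14-202 held 79.9% of its counts.

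Among the other pairs of members, none was called. Over the 12 mice Slc30a1 and Slc39a14 had the strongest relation of these. They had r = -0.613 (permutation p = 0.0324, p = 0.162 adjusted over 10 pairs) and rho = -0.706 (permutation p = 0.0131, adjusted p = 0.0655). Without HF.Ctrl mouse 3 and HF.SAAR mouse 2 their r was -0.738 (adjusted permutation p = 0.0881). By deviations from the group means their r was -0.548 (exact p = 0.0332, adjusted p = 0.166). Mtf1 and Slc39a14 had a larger r by that measure, 0.569 (exact p = 0.206, adjusted p = 0.687). The values for the exporter and the importer were thus negative by each measure, and none was called.

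Most of the wider family of zinc transporters was not called. The counts of list genes called on average, here and below, stand beside 6.82% of all genes. Of 8 zinc exporters tested, 0 were called in the averaged comparison by edgeR, with 1 at an unadjusted p under 0.05 (Slc30a3, log2 fold change -1.28, adjusted p = 0.187), and 0 by DESeq2. Slc30a7 was at -0.11, Slc30a9, the most abundant, at 0.04, and the median at 0.02. Of 13 zinc importers tested, Slc39a4 rose and Slc39a11 fell. Their median log2 fold change was -0.02 beside -0.00 over all genes. Slc39a4, the importer best known for zinc uptake in the gut, had a mean of 20.9 ± 1.62 CPM (SD, n = 3) in RF.Ctrl and 32.8 ± 3.27 in RF.SAAR. At high fat it had 18.9 ± 2.96 CPM in HF.Ctrl and 31.7 ± 3.63 in HF.SAAR. It rose by 0.70 on the log2 scale (SE 0.09, adjusted p = 0.000676) and was called at regular fat (0.65, adjusted p = 0.0289) and at high fat (0.74, adjusted p = 0.0118). Slc39a11 went from 19.8 ± 1.51 to 14.0 ± 1.36 CPM at regular fat and from 18.0 ± 1.08 to 13.4 ± 0.347 CPM at high fat. It fell by 0.46 on the log2 scale (adjusted p = 0.00354). By edgeR it was called at regular fat (-0.50, adjusted p = 0.0409) and not at high fat (-0.42, adjusted p = 0.0766). Without the mice high in acinar RNA the averaged log2 fold change was 0.66 for Slc39a4 (adjusted p = 0.0439) and -0.41 for Slc39a11 (adjusted p = 0.201).

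**Figure D5:**
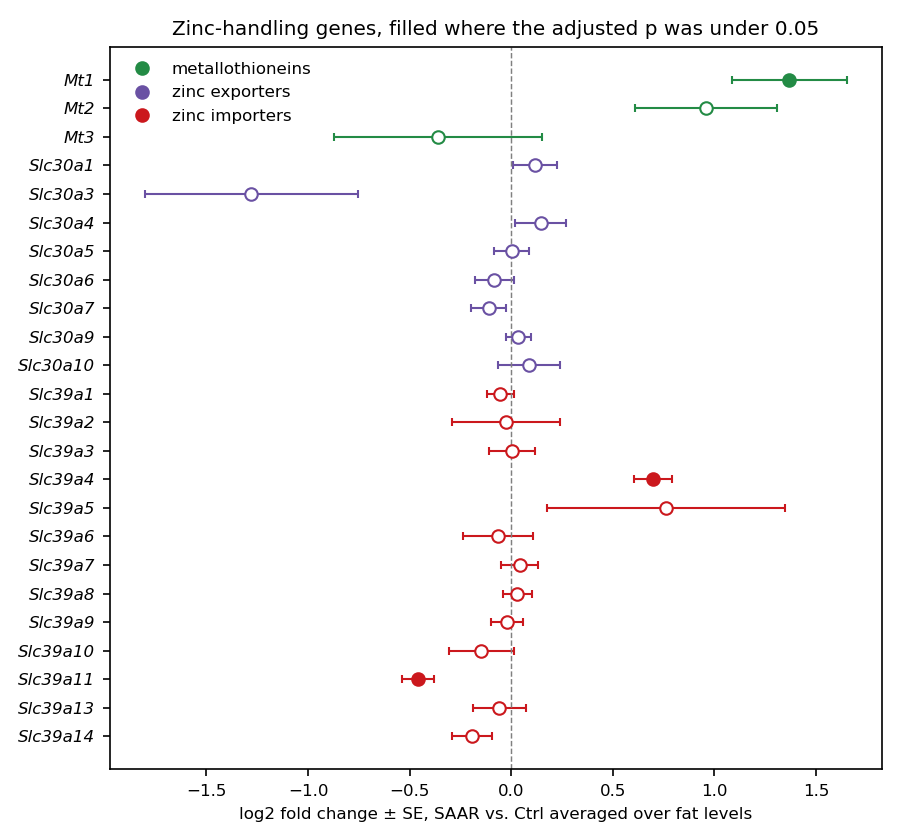
Log2 fold change (points) with SE (lines) of the tested metallothioneins, zinc exporters and zinc importers in the comparison averaged over fat levels, filled where the adjusted p from edgeR is under 0.05. Mt1 (1.37) and Slc39a4 (0.70) lie above 0 and Slc39a11 (-0.46) below it among the genes called.

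Of 10 genes on a list of Mtf1 and its reported targets that could be tested, Mt1 was the 1 called on average, beside 6.82% of all genes. Of these 10 genes 4 are members. The median log2 fold change of that list was 0.04, and its most abundant gene, Cebpa, was at -0.12. Of 12 copper-handling genes 1 was called, beside the same 6.82% of all genes. Slc31a1, the copper importer, fell by 0.27 on the log2 scale (adjusted p = 0.0244). Slc31a1 lost the call with scaling by library size (-0.10, adjusted p = 0.376) and kept it in 6 of 12 fits without a mouse (adjusted p up to 0.0819). It was not called without the mice high in acinar RNA either (-0.33, adjusted p = 0.174). Cp, which carries copper in plasma and was the most abundant of that list, was at 0.10. The median of the copper list was -0.04.

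Of 16 genes of iron and manganese handling, 5 rose and 1 fell on average, with a median log2 fold change of 0.09. Tfrc, the receptor for iron-loaded transferrin, rose the most of the list, by 1.66 (SE 0.08, adjusted p = 2.08e-07). Its mean was 12.6 ± 1.02 CPM (SD, n = 3) in RF.Ctrl and 41.3 ± 1.14 in RF.SAAR, and 12.2 ± 1.09 in HF.Ctrl and 37.2 ± 5.09 in HF.SAAR. Tfrc was called at regular fat (1.71, adjusted p = 1.15e-05) and at high fat (1.60, adjusted p = 1.3e-05). The ferritin chains Ftl1 (0.63, adjusted p = 0.00166) and Fth1 (0.45, adjusted p = 0.00202) rose too. So did the importer Slc11a2 (0.62, adjusted p = 0.00392) and the iron exporter Slc40a1 (0.33, adjusted p = 0.0233). Tfr2, the liver receptor that senses transferrin, fell by 0.32 (adjusted p = 0.00974). Trf, the most abundant gene of the list, was at -0.09. The calls of Tfrc, Ftl1, Fth1, Slc11a2 and Tfr2 held without any single mouse, and that of Slc40a1 in 7 of 12 such fits (adjusted p up to 0.0747). Without the mice high in acinar RNA, Tfrc (log2 fold change 1.83) and Ftl1 (0.81) were called. In that fit Fth1 (0.53), Slc11a2 (0.68), Slc40a1 (0.22) and Tfr2 (-0.31) were not called. With scaling by library size Tfr2 was not called (-0.14, adjusted p = 0.193).

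Metallothionein transcripts also answer to glucocorticoids and inflammation, and lists of those responses were followed. Of 13 glucocorticoid-responsive genes, Mt1 was the 1 called on average, beside 6.82% of all genes, and the median log2 fold change was 0.29. Of these 13 genes 2 are members, so the only call is a member and none of the other genes was called. Between the restricted groups 12 of the 13 were above 0, members included, with a median of 0.27 and 0 called. Errfi1, the most abundant of that list, was at -0.06. Of 17 acute-phase genes, 2 rose (Mt1 and Hpx, which binds heme) and 7 fell, with a median of -0.19. Of these 17 genes 3 are members, and the median includes them. Saa1 fell by 1.58, Orm2 by 1.49, Orm1 by 1.45 and Steap4 by 0.96 on the log2 scale. The fibrinogen chains Fga, Fgb and Fgg fell by 0.27, 0.26 and 0.28. With scaling by library size the fibrinogen chains were no longer called (Fga -0.10, adjusted p = 0.236). The calls of Hpx (2 of 12 fits without a mouse, adjusted p up to 0.115), Fgb (9 of 12) and Fgg (5 of 12) depended on single mice. Without the mice high in acinar RNA, Saa1, Orm2 and Steap4 were called. In that fit Orm1 (-1.40), Hpx (0.25), Fga (-0.24), Fgb (-0.21) and Fgg (-0.16) were not called.

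Lists of stress responses tied to amino acid and cysteine supply were followed as well. Of 12 target genes of ATF4, the factor of the amino acid response, 7 rose on average and 0 fell, with a median of 1.06. They were Fgf21 (4.07), Psat1 (3.37), Mthfd2 (2.37), Asns (2.29), Phgdh (2.26), Atf5 (1.28) and Atf4 (0.39). Between the restricted groups 12 of the 12 ATF4 targets were higher at high fat, with a median of 0.62 and 0 called. For the interaction 10 of the 12 were above 0, with a median of 0.82 and 0 called. Of 12 target genes of NRF2, the factor of the antioxidant response, 6 rose and 0 fell, with a median of 0.51. They were Gsta1 (1.54), Gstm3 (1.18), Gstm1 (0.96), Nqo1 (0.87), Srxn1 (0.50) and Txnrd1 (0.39). The calls of Atf4, Gsta1 and Srxn1 held in 3 of 12 fits without a mouse each (adjusted p up to 0.107) and that of Txnrd1 in 8 of 12, and the other calls of both lists held without any single mouse. Without the mice high in acinar RNA, Mthfd2, Phgdh, Atf5, Gstm1 and Gstm3 were called. In that fit Fgf21 was at 3.72, Asns at 2.24, Psat1 at 3.59 and Nqo1 at 0.83, and none of these was called. Atf4 (0.26), Gsta1 (0.80), Srxn1 (0.34) and Txnrd1 (0.33) were not called there either. The calls of Atf4, Gsta1 and Srxn1 were also lost with offsets for effective length. Mt1 thus rose in livers in which these genes rose as well, and no relation between them was tested.

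Markers of hepatocytes, of acinar cells and of some other cell types were followed too. Of the hepatocyte markers 0 of 8 were called on average by edgeR, with Serpina1a (-0.18, adjusted p = 0.0794) and Ass1 (0.28, adjusted p = 0.138) at an unadjusted p under 0.05, and DESeq2 called 1. Their median was -0.13. The acinar markers had 0 of 15 called and a median of -1.07, with -3.61 at regular fat and 1.25 at high fat; Amy2a5 was at -1.43 and Reg1 at -1.72. Of 7 stellate cell and fibroblast markers, Lrat fell by 0.59 (adjusted p = 0.0188), with Dcn the most abundant and a median of -0.09, a call kept in 8 of 12 fits without a mouse (adjusted p up to 0.0549) and lost with scaling by library size (adjusted p = 0.0861). Of 6 endothelial markers, Lyve1 rose by 0.55 (adjusted p = 0.00781), with Clec4g the most abundant and a median of 0.09. Lyve1 was not called without the mice high in acinar RNA (0.59, adjusted p = 0.0887). Of 8 Kupffer cell markers 0 were called, with Clec4f (0.15) the most abundant, Cd68 at 0.25 and a median of 0.10. Their median was -0.09 at regular fat, with 3 of 8 above 0, and 0.26 at high fat, with 8 of 8 above 0. It was -0.07 between the control groups and 0.17 between the restricted groups, with 1 of 8 and 8 of 8 above 0. Their summed level was 312, 379 and 307 CPM in the RF.Ctrl mice, 284, 325 and 343 in RF.SAAR, 263.0, 359.9 and 298 in HF.Ctrl and 309, 429 and 362 in HF.SAAR, and these groups overlapped. Their part in the metallothionein levels was not tested. Of 4 cholangiocyte markers 0 were called, with Krt7 at 0.29, a median of -0.36 and Sox9, the most abundant, at -0.62 (unadjusted p = 0.0145, adjusted p = 0.124 by edgeR). The adipose markers had 0 of 3 called and a median of 0.45, with Cfd (0.57) the most abundant and Plin1 at 0.33. Except for Sox9, no marker of the last 3 lists had an unadjusted p under 0.05, and DESeq2 called 0 of them. Fewer cells of a type and less RNA per cell cannot be told apart in whole liver. By edgeR over all 12 mice, no gene of any of these lists was called in HF.Ctrl vs. RF.Ctrl, in HF.SAAR vs. RF.SAAR or in the interaction.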

How the data were processed

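Total liver RNA of 12 mice was sequenced as paired-end, poly(A)-selected libraries. Per the labels and the study's methods, the authors trimmed reads with cutadapt, checked them with FastQC and quantified transcripts with kallisto on Ensembl transcripts. The deposited values are estimated counts, TPM and effective length per transcript. Estimated counts were summed per gene (118489 transcripts, of which 1673 had no gene and were kept as their own features; they held 1.07% of counts) and rounded. Genes were filtered with filterByExpr, scaled by TMM and fitted with 1 coefficient per group in edgeR 4.0.16 (R 4.3.3; robust glmQLFit, glmQLFTest), with Benjamini-Hochberg adjustment over all genes tested in a comparison; SE is the log2 fold change over the root of F. Log2 CPM used a prior count of 2. Permutation tests and correlations (100000 resamples, two-sided) used SciPy 1.17.1. Alternatives were DESeq2 1.42.0, other scalings, filters and length offsets, fits on transcripts or on the compared groups alone, and leaving out mice. P-values measure the spread between mice. The 5 members, the 18 gene lists (1 of them not described) and the naming rule (members, called and most abundant genes of each list, closest patterns, main transcripts) were chosen with earlier results of these data known.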

Additional observations from a re-analysis of the deposited data

How the results depend on the processing

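Counted once for each fit, 197 of 240 values that answer the comparisons kept their direction and side of the threshold, or their size, without a mouse, and 174 of 226 did so under the other settings. For the other genes and lists named these counts were 2015 of 2268 and 1491 of 1638. Of 33 list genes called on average, 11 lost the call without some mouse, and 12 kept it in every other setting at the gene level. The cause was not tested for any change given here. "Transcripts" means that the main transcript of each member was tested among all transcripts. No paired analysis was run, because the labels carry no replicate number. The sample titles run through the groups in a repeated order, and the labels do not say what that order marks.

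At regular fat the genes called numbered 426 with library size alone, 613 with DESeq2, 142 with the compared groups alone, 52 with transcripts and 74 without the mice high in acinar RNA. At high fat they numbered 785, 616, 183, 127 and 6 in that order. On average they numbered 2566 with library size, 537 with transcripts and 226 without those mice. Between the control groups they numbered 1 with library size, 1 without a filter, 31 with DESeq2 and 1 with the groups alone. Between the restricted groups they numbered 3 with library size, 11 without a filter, 87 with DESeq2, 1 with transcripts and 0 without the acinar mice. For the interaction they numbered 17 with DESeq2 and 0 with length offsets, transcripts or without the acinar mice. Members called at high fat numbered 2 with library size, 1 with DESeq2 and 1 with the groups alone. On average they numbered 2 with library size and 0 with transcripts, and between the restricted groups 2 with DESeq2 and 2 with the groups alone.

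At high fat Mt1 passed the threshold with library size (1.94, adjusted p = 0.0154), DESeq2 (1.75, adjusted p = 0.00230) and the groups alone (1.74, adjusted p = 0.0480). Mt2 passed with library size at high fat (1.79) and on average (1.15). Mt1 on average lost the call with transcripts (1.25). Between the restricted groups Mt1 (1.61 with DESeq2, 1.60 with the groups alone) and Mt2 (2.02 with both) passed.

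With library size Mtf1 reversed to 0.088 at regular fat, 0.076 at high fat and 0.082 on average, and Slc30a1 to 0.16 at high fat. Without the acinar mice Mtf1 became 0.041 between control groups and 0.0062 between restricted groups, and Slc30a1 became -0.15 on average and -0.13 between restricted groups. With length offsets Mtf1 became 0.12 between restricted groups and 0.45 for the interaction. With transcripts Slc39a14 became -0.0044 at high fat. In the exact permutation test Mt2 passed with TPM (1.52, adjusted p = 0.03) and without TMM (1.31, adjusted p = 0.04), and Slc30a1 with TPM (0.42, adjusted p = 0.03). Mtf1 reversed to 0.075 without TMM and Slc39a14 to 0.13 with TPM. For deviations from group means, without the 2 farthest mice, r was 0.895 for Mt1 and Mt2, 0.397 for Mt1 and Slc30a1, -0.151 for Mt1 and Slc39a14 and 0.311 for Mt2 and Slc30a1, the last 3 reversed.

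Leaving out each mouse gave from 78 to 239 genes called at regular fat, 117 to 311 at high fat, 657 to 976 on average, 0 to 2 between control groups, 1 to 7 between restricted groups and 0 to 2 for the interaction. Members called ran from 0 to 1 at high fat and from 0 to 2 on average. Mt1 ran from 1.52 to 2.15 at high fat and from 1.21 to 1.64 on average. Mt2 ran from 0.75 to 1.27 on average and from -0.092 to 0.89 at regular fat. Mtf1 ran from -0.25 to 0.017 at regular fat, -0.14 to 0.00048 between control groups, -0.19 to 0.082 between restricted groups and -0.11 to 0.16 for the interaction. Slc30a1 ran from -0.15 to 0.12 at high fat and -0.041 to 0.21 between restricted groups, and Slc39a14 from -0.0051 to 0.052 at high fat.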
